A study of Mus musculus with 10 samples.

Results

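The genes described here are the 10 costimulatory and coinhibitory ligands Cd80, Cd86, Cd40, Cd274, Pdcd1lg2, Icosl, Cd276, Vsir, Tnfsf9 and Lgals9, taken as a fixed list of symbols out of 54307 genes in the count table. Each symbol matched 1 Ensembl ID. They were measured by poly(A)+ RNA sequencing in macrophages grown from mouse bone marrow in L-929-conditioned medium for 7 days. One group of 5 libraries came from hWDFY3 KI/KI mice, labelled as overexpressing human WDFY3, and the other group of 5 came from wild-type control mice. The mice were males of 6 to 8 weeks, 5 per group. Neither the promoter that drives human WDFY3 nor the genetic background of the mice is stated in the labels. The labels name no further allele, agent or stimulus in either group. The comparison addresses how extra WDFY3, a scaffold protein of selective autophagy, affects the macrophage transcriptome.

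A macrophage that presents antigen to a T cell sends a second signal through surface ligands. CD80 and CD86 bind CD28, which promotes activation, and CTLA-4, which restrains it. CD40 receives CD40 ligand from the T cell, ICOS ligand (Icosl) binds ICOS, and CD137 ligand (Tnfsf9) binds CD137. On the inhibitory side PD-L1 (Cd274) and PD-L2 (Pdcd1lg2) bind PD-1, VISTA (Vsir) restrains T cell and myeloid responses, and galectin-9 (Lgals9) is a secreted lectin that binds TIM-3. B7-H3 (Cd276) has been reported in both directions. Many of these genes are known to be induced in macrophages by interferon-gamma or by Toll-like receptor ligands.

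The libraries held 14.6 to 36.4 M estimated counts. Whether reads of the human transcript were counted under mouse Wdfy3 is not known. Mouse Wdfy3, at 119.7 CPM in knock-in and 109.8 CPM in control macrophages (edgeR adjusted p = 0.811), therefore does not check the overexpression. CPM are counts scaled to a common library total. The cultures carried macrophage RNA, with all 8 macrophage markers tested and a summed level of 30100 to 37100 CPM in the knock-in libraries and 24000 to 34900 CPM in the control libraries. Most of that sum was 1 gene, Lyz2, at 18200 to 31400 CPM, and of the 8 markers 2 were positive and 6 negative, knock-in over control. The dendritic cell marker Itgax, which macrophages also express, was at 502 to 1020 CPM. The other markers of antigen-presenting or lymphoid cells were low but not all near 0. Among T cell genes Cd3e reached at most 0.195 CPM, Cd3g 0.325 CPM and Cd2 0.539 CPM. The dendritic cell genes Zbtb46, Clec9a and Ccr7 reached 0.709, 1.18 and 1.28 CPM. The NK cell gene Klrb1c was at 2.15 to 3.44 CPM, and the B cell genes Cd79b, Ms4a1 and Cd79a reached 2.04, 1.59 and 1.32 CPM. The ligands Cd40 and Icosl were at 1.33 to 2.79 and 1.23 to 3.06 CPM. Klrb1c, and the highest values of Ccr7, Cd79b, Ms4a1 and Cd79a, were of the same order. Cd3e, Cd3g, Cd2, Zbtb46 and Clec9a stayed below the lowest values of both ligands. The part of such cells in the ligand levels was not tested. Stromal markers differed widely between libraries, from 0.956 to 80.1 CPM in the knock-in group and from 3.66 to 143 CPM in the control group, and were highest in control 4, control 1 and knock-in 4. Their 5 tested genes were negative, knock-in over control (median log2 fold change -1.38), and so were the 6 tested neutrophil genes (-1.79). In either list 0 were called, where 0.0806% of all tested genes were. Summed neutrophil markers were 3.58 to 19.2 CPM in the knock-in and 6.24 to 49.7 CPM in the control group, highest in the same 3 libraries.

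The 10 genes covered a wide range of levels, with 3 of the 4 inhibitory ligands at the top and the fourth, Pdcd1lg2, at the bottom (see the plot of levels per length). Levels were compared between genes as CPM per kb of exon in GENCODE M21, whose lengths may differ from those of the transcripts the authors counted, which would shift each value, share and fold per kb. On this scale Vsir averaged 130.1 over the 10 libraries, Lgals9 38.3 and Cd274 21.8. The others lay far lower, with Cd276 at 3.77, Cd80 at 3.02, Tnfsf9 at 2.07, Cd86 at 1.10, Cd40 at 0.561, Icosl at 0.439 and Pdcd1lg2 at 0.139 CPM per kb. Vsir, Lgals9 and Cd274 did not overlap each other or the next gene in any library. Cd276 was above Cd80 in 7 of 10 libraries and Cd40 above Icosl in 8 of 10, so neither pair is separated beyond the spread between libraries. With the length of the longest coding transcript in place of all exons, Icosl came before Cd40 and the other ranks stayed as they were.

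**Figure D1:**
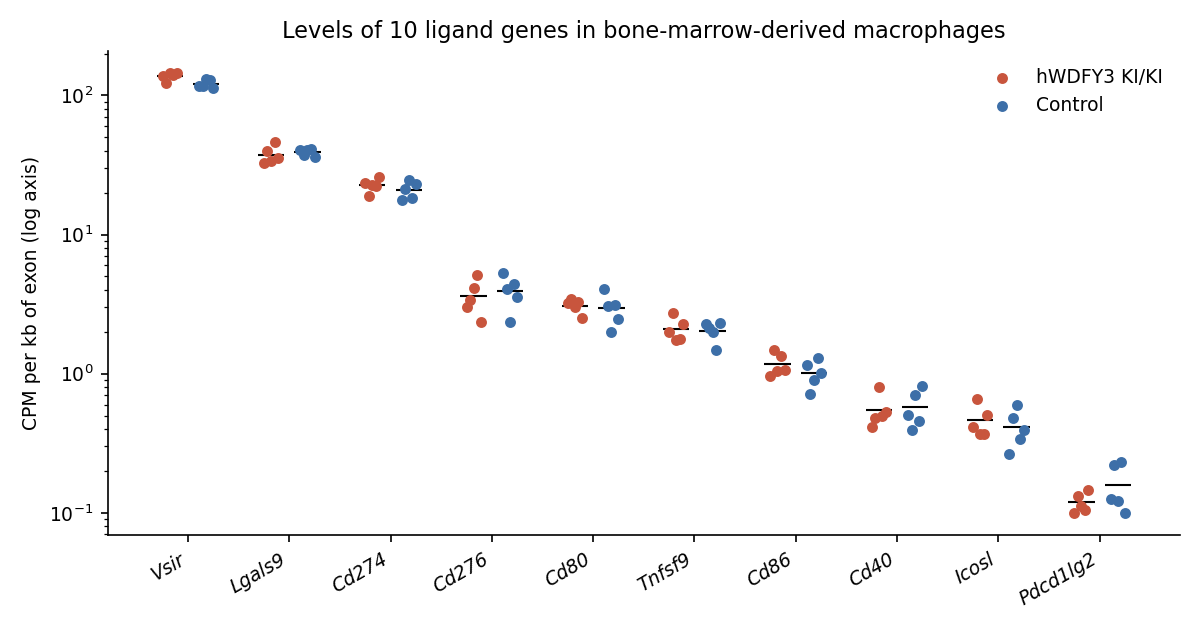
Level of each ligand gene in CPM per kb of annotated exon, on a log axis, with genes ordered by their mean. Each point is 1 library (5 hWDFY3 KI/KI, 5 control) and black lines are group means. Vsir, Lgals9 and Cd274 lie above the other 7 genes in every library, and Pdcd1lg2 is lowest.

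Summed per kb, the 4 coinhibitory genes came to 181 to 209 in the knock-in libraries and 172 to 197 in the control libraries, while the 5 costimulatory genes came to 6.87 to 8.77 in the knock-in libraries and 6.21 to 8.28 in the control libraries. The costimulatory share of the summed level of the 10 genes was 3.19 to 4.53% in knock-in macrophages and 3.02 to 4.41% in control macrophages. Vsir alone made up 63.2 to 68.3% of it in knock-in macrophages and 61.8 to 64.9% in control macrophages.

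Cd274 and Pdcd1lg2 share a receptor and lie 22.8 kb apart on chromosome 19, yet the level of Cd274 was 157 times that of Pdcd1lg2 per kb. Their promoters are shown beside those of Vsir and Lgals9, the genes with the highest levels, to show the sequence around the start sites of these unequally expressed genes. Each window runs from 250 bases before to 50 bases after the RefSeq start site in GRCm38.p6, on the strand of the gene, and motif matches are in capitals.
Vsir, chr10:60346601-60346900, plus strand: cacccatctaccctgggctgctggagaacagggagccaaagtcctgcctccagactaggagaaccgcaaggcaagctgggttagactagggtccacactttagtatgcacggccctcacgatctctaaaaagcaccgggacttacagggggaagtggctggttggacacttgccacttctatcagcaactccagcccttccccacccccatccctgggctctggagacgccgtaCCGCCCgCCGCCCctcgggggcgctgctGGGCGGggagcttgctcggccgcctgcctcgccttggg
Lgals9, chr11:78984875-78985174, minus strand: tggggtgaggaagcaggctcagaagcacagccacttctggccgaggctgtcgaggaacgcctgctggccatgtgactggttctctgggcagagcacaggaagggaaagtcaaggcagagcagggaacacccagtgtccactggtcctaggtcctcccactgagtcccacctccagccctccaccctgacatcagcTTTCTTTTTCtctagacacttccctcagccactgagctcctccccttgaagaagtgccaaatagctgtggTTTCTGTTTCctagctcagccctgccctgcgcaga
Cd274, chr19:29367188-29367487, plus strand: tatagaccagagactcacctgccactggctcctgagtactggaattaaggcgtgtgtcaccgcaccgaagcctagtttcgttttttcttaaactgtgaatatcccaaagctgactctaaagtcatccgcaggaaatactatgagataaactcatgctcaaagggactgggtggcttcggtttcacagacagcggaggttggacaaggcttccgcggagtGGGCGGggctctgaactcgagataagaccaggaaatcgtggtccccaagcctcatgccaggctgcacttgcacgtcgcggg
Pdcd1lg2, chr19:29410669-29410968, plus strand: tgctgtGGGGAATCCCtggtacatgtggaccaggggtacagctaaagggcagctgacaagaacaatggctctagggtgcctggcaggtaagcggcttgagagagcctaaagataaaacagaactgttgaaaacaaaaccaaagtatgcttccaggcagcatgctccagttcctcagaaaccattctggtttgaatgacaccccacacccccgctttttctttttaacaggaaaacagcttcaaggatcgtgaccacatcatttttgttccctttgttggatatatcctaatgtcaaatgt

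The windows were searched on both strands for an NF-kB site, a GAS element (TTCNNNGAA), an ISRE (TTTC, any 2 bases, TTTC), an AP-1 site (TGANTCA), a PU.1 site (GAGGAAGT), a TATA box (TATAAA) and a GC box (GGGCGG). The Vsir window held 3 GC boxes and the Cd274 window 1, a motif found in 35.7% of all 32851 promoter windows. The Lgals9 window held 2 ISRE matches, 1 before the start site and 1 after it, and 3.44% of all windows hold at least 1. The Pdcd1lg2 window held 1 NF-kB match, which reads as a match on both strands, a motif in 4.51% of all windows. Of the other members matched in RefSeq (7 of 10 in all), Cd276 held 4 GC boxes, Icosl 1 GC box, and Cd80 1 AP-1 site and, after the start site on the opposite strand, 1 TATA box match. All windows hold an AP-1 site in 7.81%, a TATA box in 13.6%, a GAS element in 8.30% and a PU.1 site in 3.20% of cases, and the last 2 motifs had no match in the 7 windows. GC content ran from 46.0% in the Pdcd1lg2 window to 78.3% in the Cd276 window, beside a median of 52.7% over all windows. The Cd80 and Cd276 windows lie wholly inside the GENCODE spans of their genes, and which start sites these cells use was not tested. These matches are letters in a window and were not tested for binding.

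In the comparison of knock-in with control macrophages, 9 of the 10 genes had enough counts to be tested, and 0 were called by the quasi-likelihood test of edgeR at an adjusted p of 0.05. Over all 12411 tested genes 0.0806% were called, 0.0403% higher and 0.0403% lower in knock-in macrophages. With an unadjusted p under 0.05, 1 member (Vsir) was found, where 6.21% of all tested genes were (3.29% higher in knock-in macrophages). DESeq2, which called 0.350% of its tested genes, and limma-voom also called 0 members, each with Vsir alone at an unadjusted p under 0.05. The log2 fold change, knock-in over control, was positive for 6 of the 9 members and their median was 0.056. Over all 12411 tested genes 5999 were positive and 6412 negative, with a median of -0.0046. The differences ran from -0.13 for Cd276 to 0.21 for Cd86. Both moved with single libraries, to 0.10 for Cd86 without control 2 and to -0.0081 for Cd276 without control 1 (-0.30 without knock-in 4). In no member did all 5 knock-in libraries lie outside the control range, while the groups did not overlap for 1.32% of all tested genes.

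**Figure D2:**
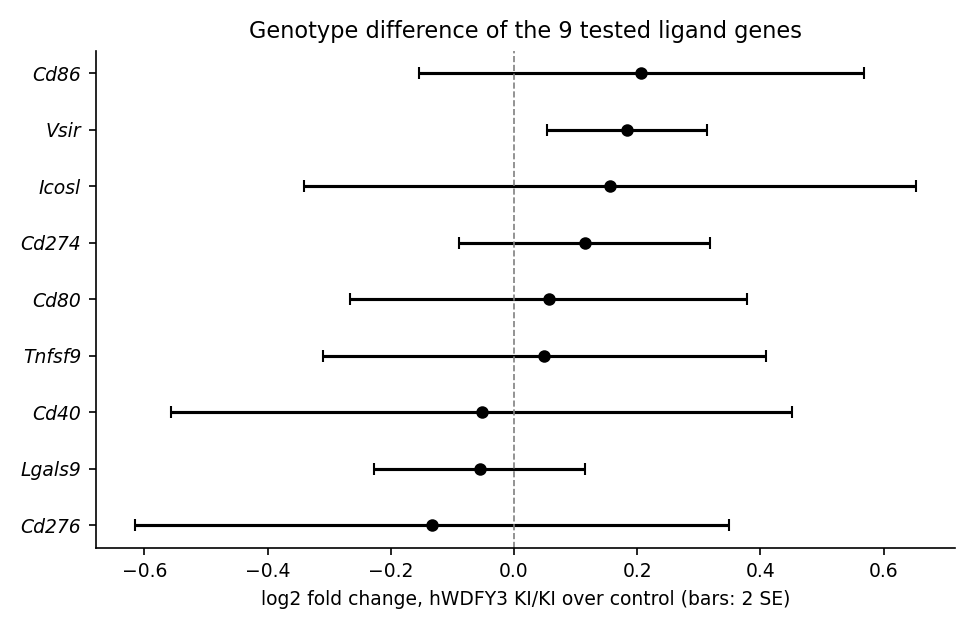
Fitted log2 fold change of each tested ligand gene, hWDFY3 KI/KI over control, with bars of 2 SE on each side. The bar of Vsir lies above 0 (0.053 to 0.31) and the bars of the other 8 genes cross 0.

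Vsir, which encodes VISTA (ENSMUSG00000020101, chromosome 10, 60346851 to 60372684 in GRCm38, plus strand), had the smallest p of the group. It was at 689.9, 613, 729.5, 707 and 728 CPM in knock-in libraries 1 to 5, against 584, 591, 661, 652 and 566 CPM in control libraries 1 to 5. All knock-in libraries were above the control median and 4 of 5 were above the highest control, but knock-in 2 lay among the controls. The means were 694 ± 47.8 CPM in knock-in and 611 ± 43.0 CPM in control macrophages (SD, n = 5 each). The log2 fold change was 0.18 ± 0.065 (SE), which is 1.14-fold with an interval of 2 SE from 1.04 to 1.24, and did not pass (edgeR adjusted p = 0.700, unadjusted p = 0.0149). An exact 2-sided permutation test of log2 CPM over all 252 assignments gave p = 0.0317, not adjusted for the 10 genes tested this way; the smallest p it can give is 0.00794. The Vsir span lies opposite to Cdh23 on the other strand, without overlap of exons, and Cdh23 was at most 0.585 CPM.

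**Figure D3:**
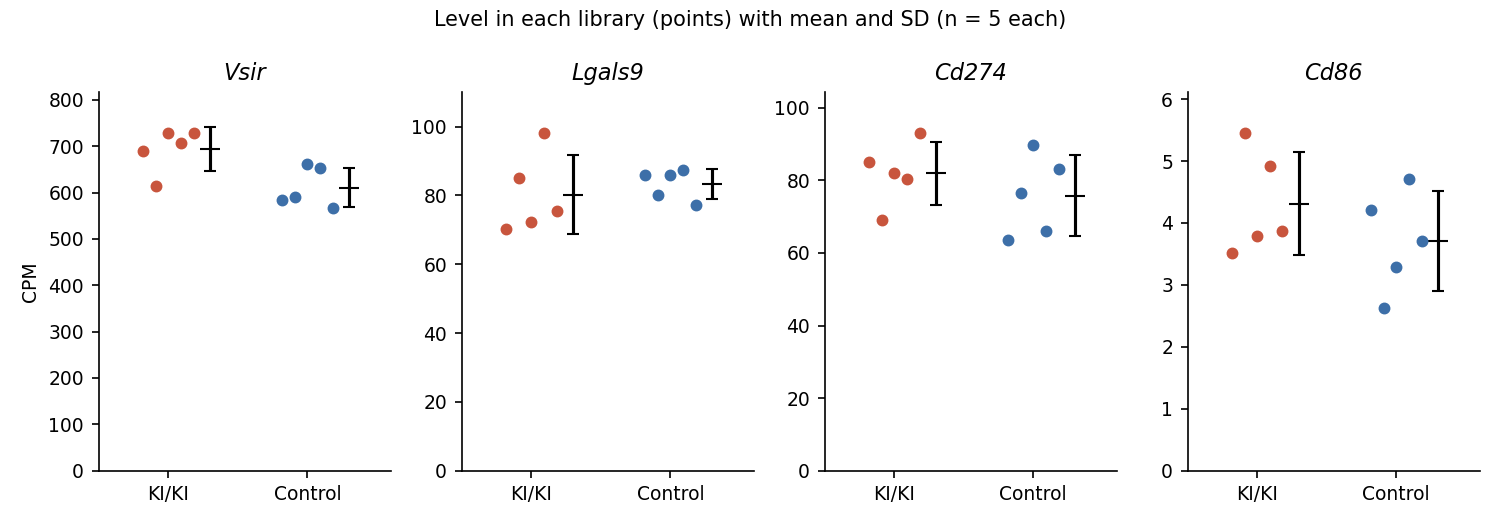
CPM of Vsir, Lgals9, Cd274 and Cd86 in each library, with the mean and SD of each group beside the points (5 hWDFY3 KI/KI, 5 control). For Vsir 4 of the 5 knock-in libraries lie above all controls, and for the other 3 genes the groups are interleaved.

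Cd274, which encodes PD-L1 (ENSMUSG00000016496, chromosome 19, 29367455 to 29388095, plus strand), was at 85.1, 69.0, 82.0, 80.5 and 93.2 CPM in knock-in libraries 1 to 5, against 63.7, 76.4, 89.7, 66.1 and 83.3 CPM in control libraries 1 to 5. The groups overlapped over most of their range, and the lowest values belonged to control 1 and control 4. The log2 fold change was 0.11 ± 0.10, with 2 SE reaching from -0.089 to 0.32 (edgeR adjusted p = 0.881). Leaving out the 3 libraries richest in stromal markers, it was -0.011 (edgeR adjusted p = 0.991). Pdcd1lg2, which encodes PD-L2 (ENSMUSG00000016498, chromosome 19, 29410919 to 29471161, plus strand), had 4, 4, 5, 4 and 6 counts in the knock-in libraries and 5, 10, 4, 16 and 3 in the control libraries. It did not pass the filter on low counts, and no difference was detected (exact permutation p = 0.270). In a fit without the filter the interval of 2 SE reached from 0.374-fold to 1.40-fold.

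Lgals9, which encodes galectin-9 (ENSMUSG00000001123, chromosome 11, 78962974 to 78984946, minus strand), was at 70.3, 85.1, 72.2, 98.3 and 75.4 CPM in the knock-in libraries, against 85.9, 80.3, 86.1, 87.3 and 77.1 CPM in the control libraries. The controls lay close together and the knock-in libraries held both the lowest and the highest values. The log2 fold change was -0.056 ± 0.086, with 2 SE reaching from -0.23 to 0.12 (edgeR adjusted p = 0.932). As a fold, the interval reaches from 0.854 to 1.08.

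Among the costimulatory genes, Cd80 (ENSMUSG00000075122, chromosome 16, 38455561 to 38496335, plus strand) was at 11.85, 12.7, 11.2, 12.1 and 9.32 CPM in the knock-in libraries, against 15.1, 11.4, 7.43, 11.6 and 9.10 CPM in the control libraries. All knock-in values lay inside the control range (log2 0.056 ± 0.16, edgeR adjusted p = 0.969). Cd86 (ENSMUSG00000022901, chromosome 16, 36603869 to 36666081, minus strand), which shares its receptors with Cd80, was at 3.51, 5.46, 3.80, 4.92 and 3.87 CPM in the knock-in libraries, against 4.22, 2.62, 3.297, 4.71 and 3.705 CPM in the control libraries. Knock-in 2 and 4 were above every control and the rest were mixed (log2 0.21 ± 0.18, edgeR adjusted p = 0.880). Per kb, Cd80 was at 2.76 times the level of Cd86.

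Cd40, a receptor of the tumour necrosis factor family (ENSMUSG00000017652, chromosome 2, 165055627 to 165072948, plus strand), was at 1.41 to 2.75 CPM in knock-in macrophages and 1.33 to 2.79 CPM in control macrophages, with 25 to 63 counts per library (log2 -0.052 ± 0.25). Icosl (ENSMUSG00000000732, chromosome 10, 78069302 to 78083913, plus strand) was at 1.69 to 3.06 CPM in knock-in and 1.23 to 2.76 CPM in control macrophages, with 25 to 55 counts (log2 0.16 ± 0.25). Tnfsf9 (ENSMUSG00000035678, chromosome 17, 57105325 to 57107757, plus strand) was at 2.27 to 3.51 CPM in knock-in and 1.90 to 2.99 CPM in control macrophages, with 43 to 67 counts (log2 0.049 ± 0.18). Their groups overlapped throughout (edgeR adjusted p = 0.985, 0.934 and 0.981 in this order). For Cd40 and Icosl the interval of 2 SE still allows changes of up to 1.37-fold and 1.57-fold upward, and down to 0.680-fold and 0.790-fold. Tnfsf9 has exons that overlap those of the lincRNA Gm11110 on the opposite strand, at a mean of 2.02 CPM, so its level is uncertain unless the authors' quantification used the strand, which no label states.

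Cd276, which encodes B7-H3 (ENSMUSG00000035914, chromosome 9, 58524298 to 58555437, minus strand), was at 11.0, 12.5, 15.1, 18.8 and 8.60 CPM in the knock-in libraries, against 19.3, 14.9, 8.57, 16.25 and 13.1 CPM in the control libraries. Both groups spanned nearly the same range (log2 -0.13 ± 0.24, edgeR adjusted p = 0.941). Its coefficient of variation within a group was 28.6%, where counting error alone gives 5.80%. Cd40 and Icosl were at 29.7% and 28.9%, where counting error alone gives 16.0% and 15.6%. The other tested genes were at 20.5% (Cd86), 20.1% (Cd80), 17.9% (Tnfsf9), 12.6% (Cd274), 10.7% (Lgals9) and 6.97% (Vsir). For Pdcd1lg2 the coefficient was 32.6%, where counting error alone gives 40.5%.

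The spread of Cd276 and Cd274 went along with stromal RNA, in opposite directions (see the plot against stromal markers). The 3 highest values of Cd276, 18.8 CPM in knock-in 4 and 19.3 and 16.25 CPM in control 1 and control 4, came from the 3 libraries with the most stromal marker RNA, at 80.1, 138 and 143 CPM. The lowest 2, 8.60 CPM in knock-in 5 and 8.57 CPM in control 3, came from libraries with 0.956 and 3.66 CPM. Over the 10 libraries, log2 Cd276 and the log2 sum of 6 stromal markers had a Pearson r of 0.885 (permutation p = 0.00108) and a Spearman rho of 0.891 (permutation p = 0.00111). The adjusted p-values over 18 relations (9 members, stromal and neutrophil markers) were 0.0194 and 0.0107. The r was 0.874 without the 2 libraries farthest from the median, 0.888 after removing each group's mean, and 0.791 in the 7 libraries outside the stroma-rich 3.

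Cd274 was lower where stromal RNA was higher, with a Pearson r of -0.799 (permutation p = 0.00645, adjusted p = 0.0428) and a Spearman rho of -0.879 (permutation p = 0.00179, adjusted p = 0.0107). The r was -0.561 without the 2 farthest libraries and so rested in part on them. It was -0.779 after removing group means and -0.712 in the 7 other libraries. Cd274 also had an r of -0.791 with neutrophil markers (permutation p = 0.00714, adjusted p = 0.0428) and a rho of -0.745 (permutation p = 0.0176, adjusted p = 0.0793), which was -0.453 for r without the 2 farthest libraries and therefore rested in part on them. Lgals9 had a rho of 0.879 with neutrophil markers (permutation p = 0.0017, adjusted p = 0.0107) but an r of 0.691 (permutation p = 0.0271, adjusted p = 0.106). Vsir had an r of -0.219 with stromal markers (permutation p = 0.533, rho -0.200 with permutation p = 0.582). The relations of Cd80 (r = 0.612, permutation p = 0.0577, adjusted p = 0.13) and Icosl (r = -0.642, permutation p = 0.046, adjusted p = 0.118) with stromal markers did not pass. In the 7 other libraries their r was 0.348 and -0.0477. Lgals9 with stromal markers did not pass either (r = 0.666, permutation p = 0.0359, adjusted p = 0.108). The same held for Cd276 with neutrophil markers (r = 0.684, permutation p = 0.0295, adjusted p = 0.106). In bulk RNA, a different number of cells of a type and a different amount of RNA per cell cannot be told apart, and the part of stromal or neutrophil cells in these values was not tested. The relations were examined after the values had been seen.

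**Figure D4:**
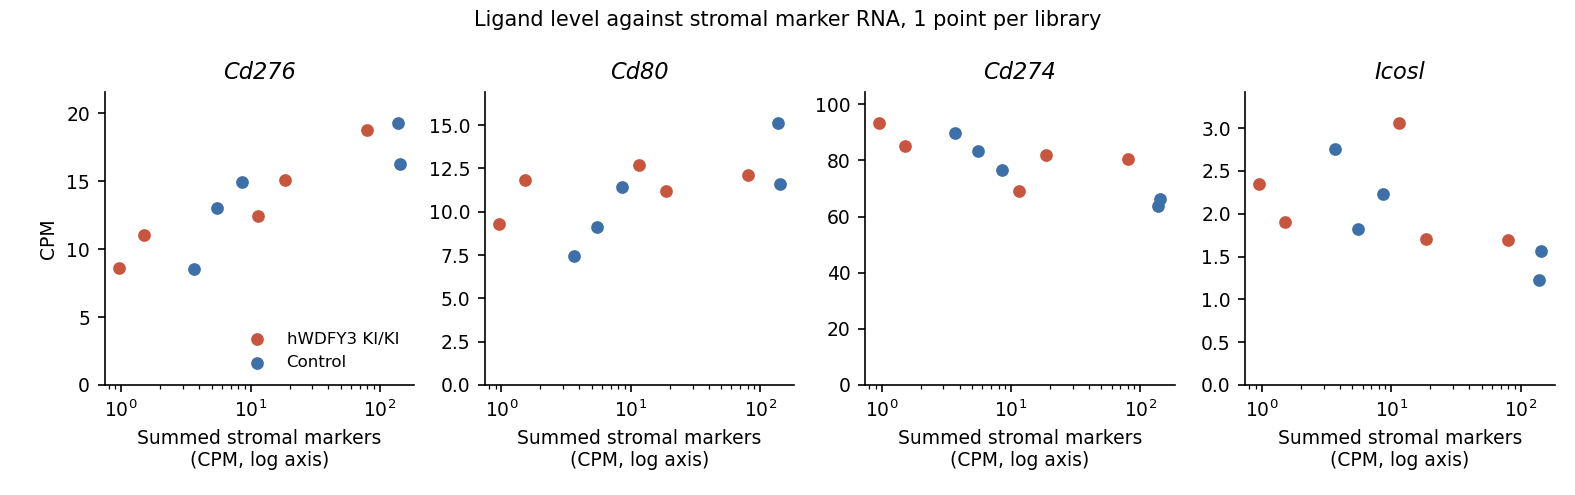
CPM of Cd276, Cd80, Cd274 and Icosl against the summed CPM of 6 stromal markers on a log axis, 1 point per library (5 hWDFY3 KI/KI, 5 control). Cd276 is highest in the 3 libraries with 80.1 to 143 CPM of stromal markers, and Cd274 is lowest in 2 of them, control 1 and control 4. The relations of Cd80 and Icosl did not pass an adjusted p of 0.05.

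Among the 9 tested ligands themselves, none of the 36 pairs passed an adjusted p under 0.05 for r or rho. The pair with the highest r was Cd80 with Cd276 (r = 0.760, permutation p = 0.0098, adjusted p = 0.176; rho = 0.600, permutation p = 0.0734), which was 0.498 without the 2 farthest libraries. The lowest was Cd80 with Cd274 (r = -0.765, permutation p = 0.00838, adjusted p = 0.176; rho = -0.733, permutation p = 0.0203), which was -0.621 without the 2 farthest libraries and -0.722 in the 7 libraries outside the stroma-rich 3. Cd80 and Cd86, which bind the same receptors, had an r of 0.416 (permutation p = 0.231, adjusted p = 0.555; rho = 0.624, permutation p = 0.0612), or 0.343 without the 2 farthest libraries. All pairs are shown in the plot of covariation.

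**Figure D5:**
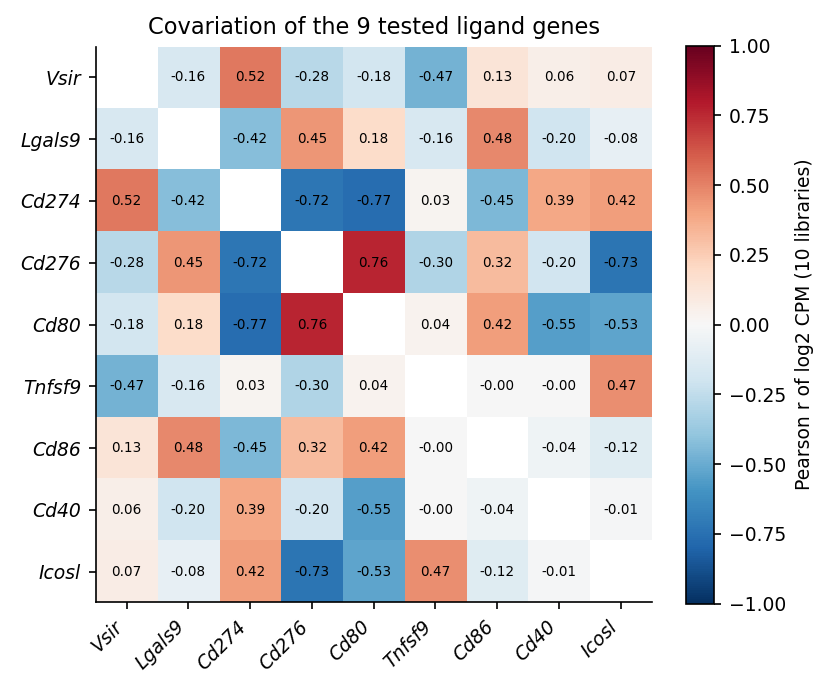
Pearson r of log2 CPM between the 9 tested ligand genes over 10 libraries (5 hWDFY3 KI/KI, 5 control), red for positive and blue for negative. Cd276 and Cd80 are positive with each other (0.76) and negative with Cd274 (-0.72 and -0.77).

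Ratios within a library gave no difference past the threshold between the genotypes. The log2 ratio of Cd274 to Pdcd1lg2, with 0.5 CPM added to each, was 6.81 ± 0.169 in knock-in and 6.55 ± 0.355 in control macrophages (SD, n = 5 each, exact permutation p = 0.183, adjusted over 3 ratios 0.548). The log2 ratio of Cd86 to Cd80 was -1.32 ± 0.206 in knock-in and -1.43 ± 0.381 in control macrophages (exact permutation p = 0.611, adjusted p = 0.619). Summed coinhibitory over summed costimulatory CPM was 5.22 ± 0.226 in knock-in and 5.16 ± 0.225 in control macrophages on the log2 scale (SD, n = 5 each, exact permutation p = 0.619, adjusted p = 0.619).

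The wider co-signalling lists held no called gene either. Over all 12411 tested genes only 0.0806% were called, so 0 calls in lists of this size say little about the lists. Of 26 other T cell co-signalling ligands, 21 were tested and 0 passed in either direction, with 12 positive and a median log2 fold change of 0.0285. Cd200, a ligand that restrains myeloid cells, was at 4.14, 4.03, 39.6, 7.43 and 34.3 CPM in the knock-in libraries, against 6.47, 2.92, 2.94, 6.21 and 1.88 CPM in the control libraries. Only knock-in 3 and knock-in 5 stood far above the controls (log2 2.10 ± 0.79, edgeR adjusted p = 0.744). Tnfsf13, which encodes APRIL, was at 31.5 ± 9.85 CPM in knock-in and 22.5 ± 4.54 CPM in control macrophages (edgeR adjusted p = 0.795).

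All 19 genes of CD40 and NF-kB signalling were tested and 0 passed, with 11 positive and a median of 0.0105. Map3k14, the NF-kB-inducing kinase, was at 12.9 ± 1.08 CPM in knock-in and 14.95 ± 1.62 CPM in control macrophages (edgeR adjusted p = 0.745), and Chuk, an IkB kinase, at 50.04 ± 2.96 CPM in knock-in and 46.02 ± 2.62 CPM in control macrophages (edgeR adjusted p = 0.799). Of 15 JAK-STAT and IRF regulators, a list that holds the interferon-gamma pathway along with Il4ra, Stat6, Stat3 and the inhibitors Socs1 and Socs3, 0 passed. In that list 13 were negative and 2 positive, with a median of -0.036, beside 6412 negative and 5999 positive of all 12411 tested genes. The list was not tested as a set. Il4ra was at 55.6 ± 7.04 CPM in knock-in and 62.6 ± 7.49 CPM in control macrophages (edgeR adjusted p = 0.818), and Irf9 at 41.8 ± 2.27 CPM in knock-in and 44.97 ± 2.95 CPM in control macrophages (edgeR adjusted p = 0.819). Of 9 genes for turnover of PD-L1 and CD86 protein, 8 were tested and 0 passed, with 3 positive and a median of -0.0086. Marchf8 and Marchf1 encode membrane ubiquitin ligases that can lower surface CD86. Marchf8 was at 81.6 ± 3.43 CPM in knock-in and 90.01 ± 3.77 CPM in control macrophages (edgeR adjusted p = 0.700), and Marchf1 at 98.8 ± 10.6 CPM in knock-in and 88.4 ± 5.88 CPM in control macrophages (edgeR adjusted p = 0.795).

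T cell partners of co-signalling ligands, some of them partners of ligands outside the 10 members, were mostly near 0. Of 12 listed, 3 were tested and 0 passed (2 positive, median 0.093), Cd40lg had 0 counts in all libraries and Pdcd1 had 1 count in all. Only Cd28 and Havcr2 were above 1 CPM in any library. Cd28, the receptor of CD80 and CD86, was at 105, 117, 124, 108 and 185 CPM in the knock-in libraries, against 95.0, 102, 108, 78.6 and 110.0 CPM in the control libraries. The groups overlapped and knock-in 5 stood highest (log2 0.38 ± 0.16, edgeR adjusted p = 0.786). Havcr2, which encodes TIM-3, was at 7.675 ± 2.20 CPM in knock-in and 7.22 ± 1.70 CPM in control macrophages (edgeR adjusted p = 0.958). Tnfrsf18, which encodes GITR and is not a receptor of the 10 members, was at 0.416 ± 0.300 CPM in knock-in and 0.579 ± 0.240 CPM in control macrophages (edgeR adjusted p = 0.898). The T cell genes Cd3d, Cd3e and Cd3g had 10, 13 and 11 counts over all 10 libraries.

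Markers of the cells that could carry the ligands held 0 called genes in each list, where 0.0806% of all tested genes were called. Of the macrophage markers, 2 of 8 were positive (median -0.042). Adgre1, which encodes F4/80, was at 824 ± 17.0 CPM in knock-in and 953 ± 75.8 CPM in control macrophages, and although the groups did not overlap it missed the threshold (log2 -0.21 ± 0.059, edgeR adjusted p = 0.548). Lyz2, a lysozyme gene, averaged 27540 CPM in knock-in and 23060 CPM in control macrophages (edgeR adjusted p = 0.799). All 3 tested dendritic cell markers of 8 were positive (median 0.335), beside 5999 of all 12411 tested genes. Below the filter, Zbtb46 and Dpp4 averaged lower in knock-in macrophages (0.261 against 0.3415 CPM and 0.398 against 0.410 CPM). Flt3, Clec9a and Cd209a, also below it, averaged higher. Itgax, which encodes CD11c and is also expressed by macrophages, was at 799 ± 204 CPM in knock-in and 633.5 ± 70.3 CPM in control macrophages (edgeR adjusted p = 0.810), and Xcr1 averaged 0.640 CPM in knock-in and 0.445 CPM in control macrophages (edgeR adjusted p = 0.856).

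Of the B cell markers 3 were tested, with 1 positive and 2 negative. Cd79b averaged 0.941 CPM in knock-in and 1.53 CPM in control macrophages (edgeR adjusted p = 0.745), and Cd79a 0.403 CPM in knock-in and 0.734 CPM in control macrophages (edgeR adjusted p = 0.811). T and NK cell markers summed to 2.53 to 3.77 CPM in the knock-in and 2.76 to 4.02 CPM in the control libraries, with Klrb1c alone tested (edgeR adjusted p = 0.935). Endothelial markers summed to 9.56 to 21.0 CPM in the knock-in and 9.05 to 13.8 CPM in the control libraries. Most of that sum was Kdr, at 7.15 to 20.1 CPM over the 10 libraries (edgeR adjusted p = 0.886). Pecam1 reached at most 1.42 CPM (edgeR adjusted p = 0.842) and Cdh5 0.539 CPM. Among neutrophil markers, Ltf averaged 0.363 CPM in knock-in and 1.61 CPM in control macrophages (edgeR adjusted p = 0.768), and S100a9 averaged 1.57 CPM in knock-in and 5.90 CPM in control macrophages (adjusted p = 0.799). Among stromal markers, Dcn averaged 3.245 CPM in knock-in and 9.23 CPM in control macrophages (edgeR adjusted p = 0.877), and Sparc averaged 3.20 CPM in knock-in and 7.50 CPM in control macrophages (adjusted p = 0.890).

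The genes most like each member across the 10 libraries were picked as the highest Pearson r among 8023 or 8024 genes at a mean of 10 CPM or more, so high values arise by selection alone, and no p is given. For Vsir they were Mapk1ip1l (r = 0.908, rho = 0.903) and Mpst (r = 0.904, rho = 0.855). For Cd274 they were Ptafr (r = 0.916, rho = 0.855) and Rad51d (r = 0.914, rho = 0.903), and for Cd276 Rnf139 (r = 0.925, rho = 0.915) and Dcaf6 (r = 0.914, rho = 0.915). For Cd80 they were Tmsb4x (r = 0.965, rho = 0.818) and Exoc6 (r = 0.963, rho = 0.673), for Cd86 Ganab (r = 0.955, rho = 0.976) and Asb8 (r = 0.897, rho = 0.903), and for Lgals9 Pskh1 (r = 0.894, rho = 0.806) and Fez2 (r = 0.891, rho = 0.794). For Cd40 they were Ppp1r8 (r = 0.907, rho = 0.758) and Etaa1 (r = 0.892, rho = 0.842), for Icosl Hspbp1 (r = 0.951, rho = 0.806) and Pou6f1 (r = 0.936, rho = 0.952), and for Tnfsf9 Thoc5 (r = 0.925, rho = 0.879) and Zfp398 (r = 0.905, rho = 0.842).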

How the data were processed

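Poly(A)+ RNA of 10 macrophage cultures was read as strand-specific 100-bp paired ends, per the labels' protocols. The authors deposited estimated counts per Ensembl gene and a table of log2 values on the regularized-log scale, one column per library. Salmon 1.6.0, DESeq2 1.34.0 and the builds GRCm39 and mm10 are named in the submitters' processing notes, without settings or roles. The estimated counts were rounded and tested with edgeR 4.0.16 in R 4.3.3, using TMM scaling, the filterByExpr defaults (minimum count 10, minimum total 15), robust dispersion and the quasi-likelihood F-test over all 10 libraries, with Benjamini-Hochberg adjustment over 12411 genes and a threshold of 0.05. CPM used TMM-scaled library sizes, and log2 CPM a prior count of 2. Single values and ratios were compared with exact 2-sided permutation tests (SciPy 1.17.1), and correlations with 100000 permutations. Exon lengths and gene coordinates are from GENCODE M21 (GRCm38), matched by gene ID, and promoters from RefSeq (GRCm38.p6). The files carry no coordinates, so none were converted.

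Libraries totalled 14.6 to 36.4 M counts, and depth limits Pdcd1lg2, Cd40, Icosl and Tnfsf9. The libraries all differed beyond sampling noise (chi-square per gene between libraries of a group, 8.77 to 54.5). Named were all 10 members, the 2 tested genes with the smallest p of each pathway and cell type list (none was called), and the 2 genes most like each member. Receptors, markers and overlapping genes beyond this were named after their values were seen. The members and lists were chosen with earlier results of these data known. Alternatives tried were DESeq2 1.42.0, RLE and upper-quartile factors, limma-voom and limma-trend (limma 3.58.1) on the deposited values, other filters, unrounded counts, dispersion without robust estimation, leaving out each library, and a replicate block. The fit without the 3 stroma-rich libraries was added after seeing the data.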

Additional observations from a re-analysis of the deposited data

Results flagged for a closer look

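The log2 ratio of Cd274 to Pdcd1lg2 was 6.52 in knock-in 2, below the other 4 knock-in libraries, which ran from 6.84 to 6.95. Its gap of 0.765 of the group's range is past the limit of 0.71 for 5 values. Knock-in 2 had the lowest Cd274 of its group, at 69.0 CPM, and 4 counts of Pdcd1lg2. Of 26 groups of values examined this was the only one past the limit, and chance gives about 1 in 20. No single member was past it.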

How the results depend on the processing

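In each of 21 alternatives, 0 member ligands were called. Vsir kept a positive fold change in all 21 (0.12 to 0.22, adjusted p from 0.405 to 0.987), and Cd86, Cd276, Lgals9 and Pdcd1lg2 also kept their sign wherever they could be fitted. The count of called genes, 10, was 49 in DESeq2, 38 once the 3 stroma-rich libraries were removed, and 6 to 23 when 1 library was left out (6 without knock-in 1, 2 or 3 or control 2, and 23 without knock-in 4). The replicate number as a block gave 12 called genes. Same-numbered libraries deviated together in only some pairs (r from -0.200 to 0.509), and numbers 4 and 5 alone had their own number as best partner, so the numbers were not taken to pair the libraries. The block changed no call of a member (Vsir 0.18, adjusted p = 0.529).

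Small differences changed sign. Without the 3 stroma-rich libraries the log2 fold change was -0.011 for Cd274 and -0.028 for Icosl (-0.019 and -0.028 as differences of mean log2 CPM), and the log2 ratio of summed coinhibitory to costimulatory CPM differed by -0.032. Same-sign moves there were to 0.26 for Cd80 (edgeR adjusted p = 0.829), 0.38 for Cd86 (adjusted p = 0.788) and -0.10 for Lgals9 (adjusted p = 0.871). Cd40 was 0.036 in limma-voom. Leaving out 1 library gave ranges of -0.051 to 0.20 for Cd80 (-0.031 to 0.22 as differences of mean log2 CPM), -0.24 to 0.10 for Cd40 (-0.20 to 0.077), -0.00049 to 0.32 for Icosl, -0.056 to 0.11 for Tnfsf9 (-0.065 to 0.10), -0.30 to 0.014 for Cd276 as a difference of mean log2 CPM (-0.30 to -0.0081 as fitted), 0.10 to 0.32 for Cd86 and -0.14 to -0.012 for Lgals9 (-0.14 without knock-in 4, edgeR adjusted p = 0.627). Over the same fits the ratio of Cd86 to Cd80 differed by -0.021 to 0.20, summed coinhibitory over costimulatory by -0.014 to 0.16, and Cd274 over Pdcd1lg2 by 0.15 to 0.35. The exact permutation p of Vsir was 0.0159 to 0.0635 when 1 library was left out (0.0635 without knock-in 3, 4 or 5 or control 1, 2 or 5), 0.119 on the deposited log2 values and 0.114 without the stroma-rich libraries. The cause of these changes was not tested.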
